A study of Mus musculus with 18 samples.

Results

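Pregnancy and pseudopregnancy were treated as 1 condition and set against the virgin state in epithelial cells of the ileum, the distal segment of the small intestine, obtained by sorting from female mice. The 12 libraries of the 2 reproductive states, 6 titled pregnant and 6 titled pseudopregnant, were chosen by their titles and compared with the 6 virgin libraries, so that all 18 libraries of the series were used. The quantity compared was the mean of 2 group effects on the log2 scale, pregnant minus virgin and pseudopregnant minus virgin, for each of the 14675 genes that passed a low-count filter out of 47729 counted. The question was which transcripts the states of pregnancy and pseudopregnancy share. The series title places the study in the growth of the maternal gut during reproduction. The 3 groups differed in the label of mating status and shared the rest: female mice, ileum, sorted epithelial cells, poly(A) RNA and RM1 chow during the experiment. The labels used here give no strain, genotype, age, day of pregnancy, mating scheme for pseudopregnancy, hour of collection or sort marker, and they do not say that replicates are separate animals, so the p-values here reflect only the spread among the samples. Libraries held 28.1 to 32.5 M (mega) counts in the virgin group and 24.9 to 37.3 M in the 2 states.

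Pregnancy in mice places the mother under progesterone, prolactin-type hormones and placental hormones while her food intake and nutrient demand grow. Pseudopregnancy follows a sterile mating: the corpora lutea persist and secrete progesterone, but there is no embryo or placenta, so the luteal endocrine state is the part that both have in common. The small intestine answers reproduction with growth of its mucosa, and the ileal epithelium has particular tasks in it: recovery of bile acids, uptake of vitamin B12 through the cubilin receptor, and absorption of the peptides, sugars, fat and metals that the upper gut has left. Its cells arise from crypt stem cells and become absorptive enterocytes on the villus, or goblet, Paneth, enteroendocrine or tuft cells.

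The epithelial marker Epcam stood at 2096 to 2988 counts per M counts (CPM, scaled by TMM between libraries) in virgin libraries and at 1639 to 3589 in the 2 states, and Ptprc, the gene of the leukocyte marker CD45, at 0.261 to 0.584 and 0.198 to 0.638 CPM. Summed CPM of marker lists overlapped between the groups: T cells 0.462 to 3.32 in virgin and 0.534 to 4.40 in the 2 states, B and plasma cells 1.17 to 5.15 and 1.17 to 3.43, myeloid cells 15.6 to 44.7 and 16 to 42.1, fibroblasts and smooth muscle 3.39 to 9.08 and 4.05 to 12.3, endothelium 3.06 to 5.93 and 3.32 to 6.10. Red blood cell genes were at 1.35 CPM or less in sum, and those of enteric neurons and glia at 0.996 or less. Genes of ribosomal proteins took 3.46% ± 1.02 of counts in the 2 states (SD, n = 12) and 4.37% ± 1.21 in virgin libraries (n = 6), which was within the spread (two-sided exact permutation test, p = 0.11, 0.386 after adjustment over 5 library measures). The length slope was the slope of a library's log2 deviations on log2 gene length over 3382 well expressed genes. Gene length was the union of all annotated exons of a gene. The length slope was 0.034 ± 0.143 in the 2 states and -0.068 ± 0.122 in virgin libraries (exact permutation p = 0.154, adjusted 0.386). A villus-minus-crypt score, the mean log2 deviation of enterocyte markers minus that of dividing cells, was 0.127 ± 0.743 and -0.25 ± 0.829 (exact permutation p = 0.337, adjusted 0.562). It was highest in pregnant replicate 3, virgin replicate 3 and pseudopregnant replicate 3 (1.46, 1.35 and 1.17), so virgin replicate 3 stood apart from the other virgin libraries, which lay between -0.90 and -0.21. The length slope was lowest in virgin replicate 2, pregnant replicate 1 and pseudopregnant replicate 1 (-0.25, -0.24 and -0.16).

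Over the whole transcriptome no gene passed an adjusted p of 0.05 with edgeR's quasi-likelihood test (0 of 14675 genes, 0%), and no gene had all 12 libraries of the 2 states above, or all below, all 6 virgin libraries. An unadjusted p under 0.05 was held by 1116 genes (7.6%), of which 704 were higher in the 2 states (4.8%) and 412 lower (2.81%). Upper quartile scaling gave 525 higher and 598 lower. DESeq2 called 2 genes, Gm42427 and Bco1, with 1282 at an unadjusted p under 0.05, and limma-voom called 0 with 968. Over all genes the median log2 fold change was -0.0005, with 5% of genes under -0.38 and 5% over 0.47, and the median standard error (SE) was 0.175. The fold changes are given as measured values, and none passed adjustment in the edgeR model: the adjusted p was 0.341 for Gm42427 and 0.577 for every other gene in the plot of the genes of smallest p.

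The number of genes at an unadjusted p under 0.05 moved widely with single libraries. Leaving out virgin replicate 3 gave 2871 genes, pregnant replicate 1 gave 2310, pseudopregnant replicate 1 gave 2088 and pseudopregnant replicate 6 gave 1759. Leaving out virgin replicates 1, 2 or 6 gave 507, 454 or 735, pregnant replicate 6 gave 720, and pseudopregnant replicate 5 gave 739. With the length slope in the model it was 447. After the 3 libraries of highest villus-minus-crypt score were left out it was 2017, and after the 3 of lowest length slope it was 1860; both sets were chosen after the data were seen.

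**Figure D1:**
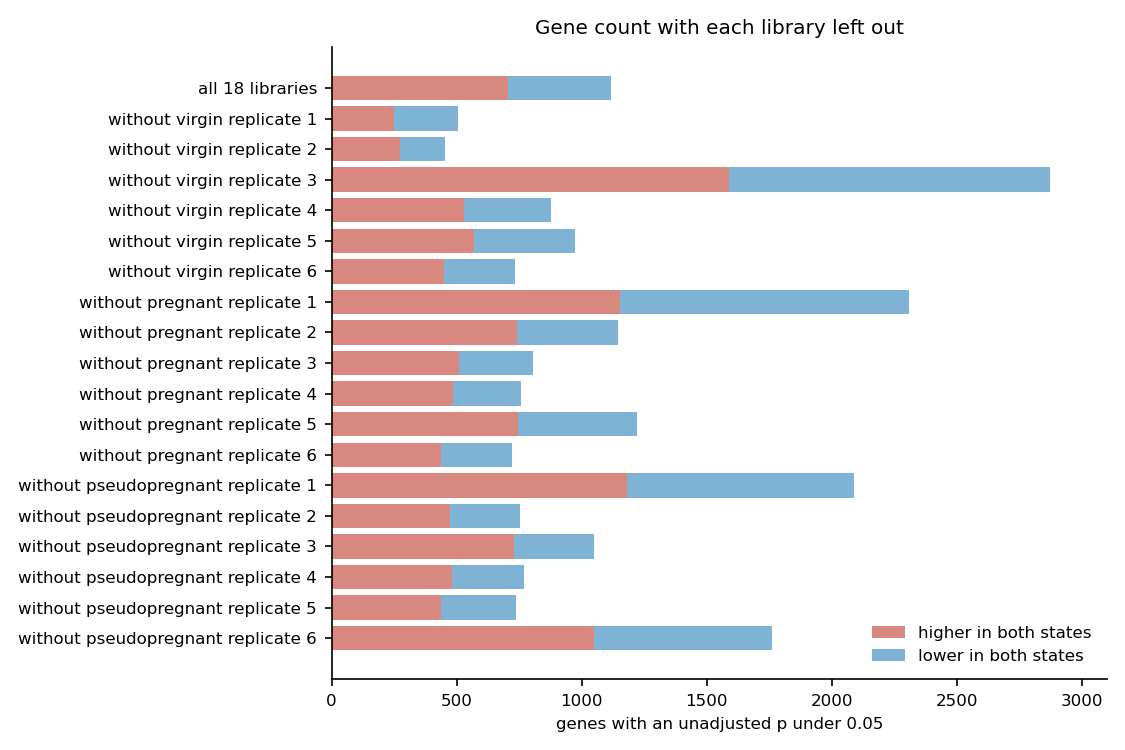
Number of genes with an unadjusted p under 0.05 (x axis) in the comparison of both states with virgin, for all 18 libraries (top bar, 1116) and with each library left out in turn. Red, higher in the 2 states; blue, lower; the count ran from 454 without virgin replicate 2 to 2871 without virgin replicate 3.

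Bco1 and Gm42427 were the highest-ranked transcripts shared by the 2 states. Bco1 encodes beta-carotene oxygenase 1, the enzyme that cleaves dietary beta-carotene to retinal in the enterocyte (GRCm38 chromosome 8, 117095854 to 117133720, plus strand). In virgin libraries Bco1 stood at 8.40, 16.4 and 19.0 CPM (lowest, median, highest), and in the 12 libraries of the 2 states at 9.64, 38.0 and 69.5 CPM. Only pseudopregnant replicate 4, the lowest, lay within the virgin range, and the other 11 libraries lay above every virgin library. The log2 fold change was 1.42 (SE 0.32), from 1.63 (SE 0.35) in pregnant and 1.22 (SE 0.35) in pseudopregnant libraries. These 2 effects share the virgin libraries, here and in all comparisons that follow. Leaving out 1 library gave 1.30 to 1.52, and adding the villus-minus-crypt score to the model gave 1.13. DESeq2 gave an adjusted p of 0.0225, and over all alternatives the adjusted p ran from 0.0225 to 1.0.

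The RefSeq promoter of Bco1 is printed because Bco1 was the only coding gene that DESeq2 called. Capitals mark a direct repeat of AGGTCA with 1 base between its copies, a form that nuclear receptors are known to bind, which lies here on the other strand and starts 56 bases upstream of the RefSeq start. The window is chr8:117095615-117095864 on the plus strand of GRCm38.p6, 250 bases ending at that start, of which the last 11 lie in an annotated transcript. Of 32851 RefSeq promoter windows of this length, 11 (0.0335%) hold the repeat on either strand. The motif was chosen after the values were seen, and a match of letters is not a measured site.
Bco1: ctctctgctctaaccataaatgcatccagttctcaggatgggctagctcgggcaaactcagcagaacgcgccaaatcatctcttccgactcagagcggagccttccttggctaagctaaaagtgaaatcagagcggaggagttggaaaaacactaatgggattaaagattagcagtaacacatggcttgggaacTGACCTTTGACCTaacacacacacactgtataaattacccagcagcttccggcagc

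Other genes of carotenoid and retinoid handling had smaller values than Bco1. Of 12 tested members of that list of 17, 8 had positive and 4 negative fold changes, with a median of 0.11 beside -0.0005 over all genes (0.04 with the length slope, 0.03 with the villus-minus-crypt score and 0.05 without virgin replicate 6), and only Bco1 of these 12 had an unadjusted p under 0.05. Lrat, which esterifies retinol for chylomicrons, stood at 13.5 to 17.9 CPM in virgin libraries and at 12.4 to 25.2 in the 2 states (log2 fold change 0.28, SE 0.15). Isx encodes a homeodomain factor known to repress Bco1 and Scarb1 in the intestine. Its fold change was 0.01 (SE 0.09), made of -0.14 in pregnant and 0.16 in pseudopregnant libraries: the pregnant libraries lay between 79.8 and 103 CPM and the pseudopregnant ones between 105 and 117, while virgin libraries spanned 81.0 to 121. Scarb1, a receptor that takes up lipids and carotenoids, was counted in the cholesterol list. It stood at 0.316, 0.690 and 0.999 CPM in virgin and at 0.437, 1.13 and 2.80 in the 2 states (0.78, SE 0.33, unadjusted p = 0.0270 and adjusted p = 0.577 with edgeR). At these low levels, Scarb1 overlapped between the groups, with 7 of 12 libraries above the virgin range.

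Gm42427 is a transcript of the annotation class TEC, whose models still await experimental evidence, on chromosome 5 (44137980 to 44143271, plus strand), where it overlaps no other annotated gene. Virgin libraries held 10.8, 17.0 and 20.4 CPM of Gm42427 (lowest, median, highest) and the 2 states 15.4, 42.5 and 56.3 CPM. All libraries of the 2 states except pseudopregnant replicate 1 lay above the virgin range. Its fold change was 1.35 (SE 0.24), with 1.44 (SE 0.27) in pregnant and 1.25 (SE 0.27) in pseudopregnant libraries. With the length slope in the model it was 1.03, and leaving out 1 library gave 1.2 to 1.4. DESeq2 gave an adjusted p of 0.000207 and edgeR 0.341, and without pseudopregnant replicate 1 edgeR gave 0.0181. Among the alternatives tried, its adjusted p ran from 0.000207 to 1.0.

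**Figure D2:**
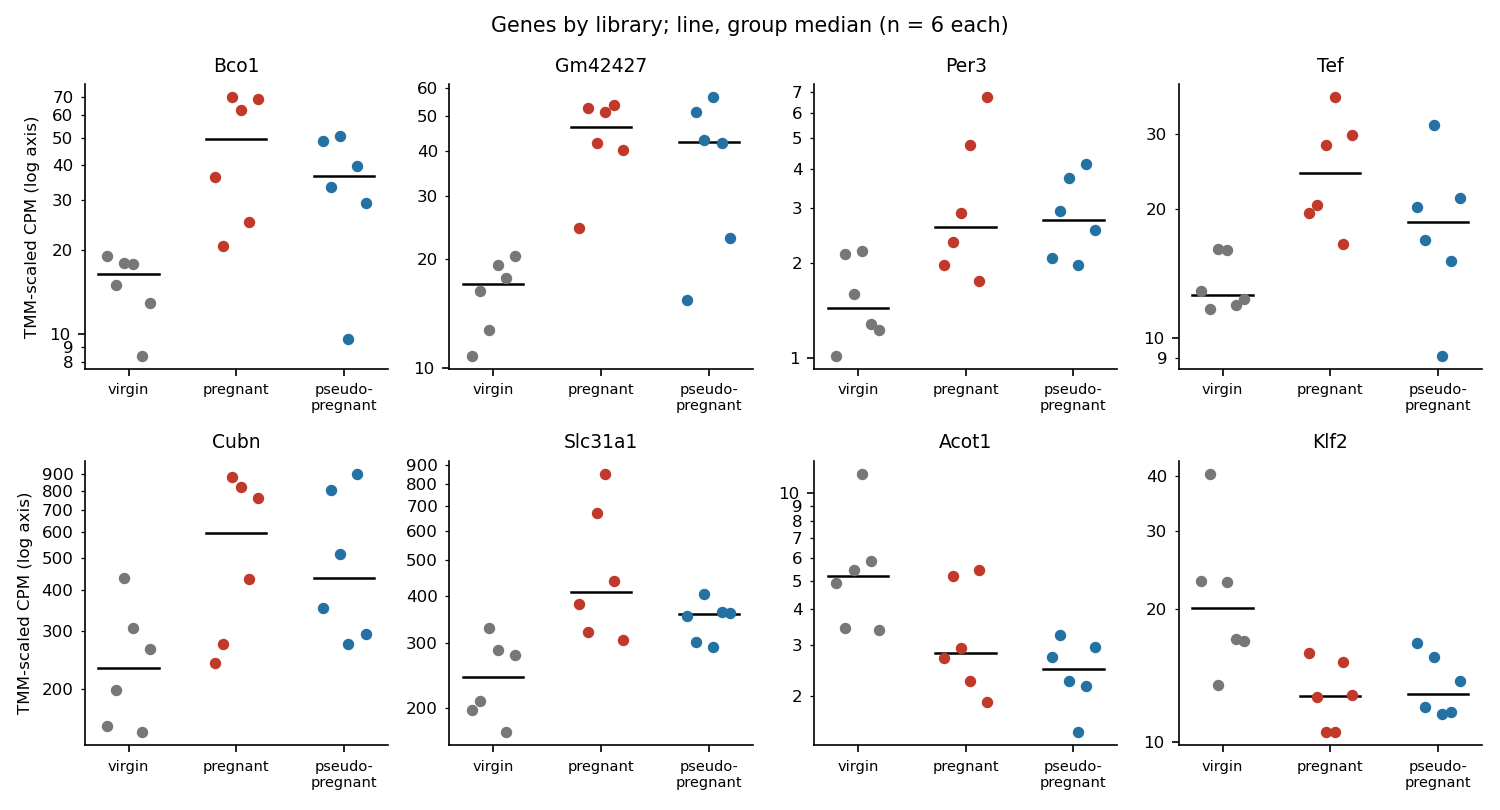
CPM (log axis, TMM-scaled) of 8 genes in each of the 18 libraries, with the group median as a line (n = 6 each). For Bco1 and Gm42427 all but 1 library of the 2 states lie above the virgin points, while Acot1 and Klf2 lie lower in the 2 states with overlap.

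Output genes of the circadian clock were higher in the 2 states as a group. The clock is a loop in which the activators BMAL1 and CLOCK drive their own repressors, the PER, CRY and REV-ERB proteins, together with the D-box factors DBP, TEF and HLF, which pass the rhythm on to metabolic genes. Of 15 tested members of the list of output genes and repressors, 12 were positive and 3 negative, 7 of them at an unadjusted p under 0.05 and none lower, with a median of 0.37 (0.47 in pregnant and 0.28 in pseudopregnant libraries). Leaving out 1 library gave medians of 0.29 to 0.50. The median was 0.27 with the length slope and 0.30 with the villus-minus-crypt score in the model. The 7 genes are 46.7% of the list, beside 7.6% of all genes tested, which is the share to set beside such counts in the lists below. Members and lists were chosen with earlier results of these data known, so such shares are descriptions and not tests. Clock genes can also vary together from library to library, so the 7 are not separate observations. The score of the list, its mean log2 deviation from the mean of all libraries, was -0.39 to -0.13 in virgin libraries, -0.13 to 0.64 in pregnant and -0.35 to 0.31 in pseudopregnant ones. Pseudopregnant replicate 4 and pregnant replicate 1 lay inside the virgin range, and the other 10 libraries lay above it. The hour of collection is not given in the labels used here.

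Per3, a period gene of the repressor arm (chromosome 4, 151003652 to 151044665, minus strand), stood at 1.01, 1.43 and 2.19 CPM in virgin and 1.75, 2.72 and 6.74 CPM in the 2 states. All 12 libraries of the 2 states lay above the virgin median, and 8 above the virgin range. Its log2 fold change was 1.01 (SE 0.29), at 1.13 in pregnant and 0.89 in pseudopregnant libraries. Tef, a D-box transcription factor (chromosome 15, 81802421 to 81826863, plus strand), stood at 11.7, 12.6 and 16.2 CPM against 9.09, 20.4 and 36.6 CPM (0.70, SE 0.21). All pregnant libraries and all pseudopregnant ones but replicate 4 exceeded the virgin median of Tef. Dbp, the founding D-box factor, had the widest spread of these genes, with 2.98, 3.81 and 6.87 CPM in virgin and 1.56, 8.51 and 24.4 CPM in the 2 states (1.08, SE 0.40). Its effect was 1.51 (SE 0.44) in pregnant and 0.65 (SE 0.44) in pseudopregnant libraries, a difference of 0.86 (SE 0.43) that did not pass adjustment over all genes (edgeR adjusted p = 0.92). Nr1d2 and Nr1d1, which encode the REV-ERB repressors, were at 0.50 (SE 0.16) and 0.47 (SE 0.18), each with the larger part in pregnant libraries (0.71 and 0.65, against 0.28 and 0.30).

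The activator arm showed less. Of its 9 tested members 7 were positive, with a median of 0.12, and 1 (11.1%, beside 7.6% of all genes) had an unadjusted p under 0.05. That was Rora, a receptor that drives Bmal1 and competes with REV-ERB, at 0.173, 0.292 and 0.435 CPM in virgin and 0.250, 0.412 and 0.712 CPM in the 2 states (0.54, SE 0.26).

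Promoters of Per3 and Tef are shown because they carry the elements through which the clock loop is known to work, so their matches follow from this choice. Only the D-box was marked in Per3 and only the E-box in Tef, and windows of other clock genes are not shown. Which start of Tef is used in these cells was not tested. In Per3 the capitals mark 2 D-boxes, TTATGTAA, starting 205 and 158 bases upstream of the RefSeq start (chr4:151044666-151044915, printed on the minus strand of GRCm38.p6). In Tef they mark an E-box, CACGTG, the element bound by BMAL1 and CLOCK, starting 138 bases upstream (chr15:81811164-81811413, plus strand, the second RefSeq start of the gene). D-boxes occur in 269 (0.819%) and E-boxes in 1978 (6.02%) of the 32851 windows of 250 bases, with both strands searched. All 3 genes whose promoters are printed were found in the RefSeq table. The last 7 bases of the Per3 window and the last 6 of the Tef window lie in annotated transcripts, and these motifs were also chosen after the values were seen.
Per3: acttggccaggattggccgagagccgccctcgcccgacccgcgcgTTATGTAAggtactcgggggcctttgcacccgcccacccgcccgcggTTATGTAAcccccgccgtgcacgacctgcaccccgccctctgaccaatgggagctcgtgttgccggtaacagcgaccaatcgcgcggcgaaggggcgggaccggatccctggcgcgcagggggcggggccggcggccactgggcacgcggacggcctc
Tef: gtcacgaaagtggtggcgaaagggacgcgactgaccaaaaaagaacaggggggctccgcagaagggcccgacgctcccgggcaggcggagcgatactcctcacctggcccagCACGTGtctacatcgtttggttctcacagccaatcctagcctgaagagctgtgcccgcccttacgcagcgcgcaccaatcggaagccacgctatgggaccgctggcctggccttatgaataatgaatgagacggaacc

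Most genes of the absorptive surface had positive values, from the vitamin B12 receptor to peptidases and transporters, and none passed adjustment. Cubn, which encodes cubilin, the ileal receptor for vitamin B12 bound to intrinsic factor (chromosome 2, 13276338 to 13491813, minus strand), stood at 148, 232 and 437 CPM in virgin and 240, 474 and 901 CPM in the 2 states. All 12 libraries of the 2 states lay above the virgin median of Cubn, and 6 above the virgin range. The log2 fold change was 1.12 (SE 0.34), nearly equal in pregnant (1.17) and pseudopregnant (1.06) libraries. Cubn has a long transcript, and with the length slope in the model the value was 0.69. In bulk libraries, fewer cells of a type and less RNA per cell cannot be told apart, which holds for all lists of cell types and functions below.

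Peptidases of the brush border, which split peptides at the cell surface, were positive in 12 of 12 tested members, with a median of 0.33 (0.48 in pregnant, 0.20 in pseudopregnant), and 3 had an unadjusted p under 0.05. The median was 0.19 with the villus-minus-crypt score in the model and 0.50 without virgin replicate 3. That score contains peptidase genes such as Dpp4 and Ace, so adding it to the model takes out part of the list itself. For comparison, 49.9% of all genes tested were positive and 50.1% negative. Dpp4, dipeptidyl peptidase 4, stood at 301, 436 and 685 CPM in virgin and 398, 645 and 927 CPM in the 2 states (0.49, SE 0.20). Xpnpep2, an aminopeptidase for bonds next to proline, was at 0.44 (SE 0.18) and Ace, angiotensin-converting enzyme, at 0.61 (SE 0.29), or 0.22 with the length slope in the model. Amino acid and peptide transporters were positive in 18 of 20, with a median of 0.33 (0.34 and 0.23) and 4 at an unadjusted p under 0.05. That median was 0.16 with the length slope and 0.21 with the villus-minus-crypt score in the model. Slc36a1, the proton-coupled transporter of small amino acids, stood at 12.2, 31.9 and 54.7 CPM in virgin and 20.5, 53.7 and 84.3 CPM in the 2 states (0.71, SE 0.32, and 0.25 with the length slope). Slc6a18, a neutral amino acid transporter, was at 1.12 (SE 0.48) with a median of only 0.403 CPM in virgin libraries. Disaccharidases and scaffold proteins of the brush border were positive in 13 of 15 (median 0.26), with the starch-digesting enzyme Mgam at 730, 1256 and 2067 CPM against 1120, 1982 and 3093 CPM (0.55, SE 0.24) and the actin-bundling protein Eps8 at 0.31 (SE 0.15). The median of this list was 0.14 with the villus-minus-crypt score and 0.44 without virgin replicate 3.

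Sugar transport genes were positive in 12 of 18, with a median of 0.15 (0.29 in pregnant and 0.05 in pseudopregnant libraries, a difference not tested over the list). This median was 0.04 with the length slope, 0.008 with the villus-minus-crypt score, 0.03 without virgin replicate 2 and 0.30 without virgin replicate 3. Slc5a4a, of the sodium/glucose cotransporter family, stood at 37.6, 54.5 and 129 CPM in virgin, 84.4, 121 and 235 CPM in pregnant and 36.8, 70.7 and 147 CPM in pseudopregnant libraries. The mean effect of 0.75 (SE 0.32) thus rested on 1.18 and 0.32, and the difference between these 2 effects, 0.87 (SE 0.36), had an adjusted p of 0.92 with edgeR. Slc5a4a has a close paralog, and its reads may be shared with it. Slc5a9, a transporter of mannose and glucose, was at 0.46 (SE 0.19), with 0.39 and 0.53 in the 2 states, and the main glucose importer Slc5a1 at 0.20 (SE 0.18). Markers of absorptive enterocytes were positive in 16 of 20, with a median of 0.29 that ran from 0.17 without virgin replicate 2 to 0.49 without virgin replicate 3, and was 0.16 with the length slope and 0.15 with the villus-minus-crypt score. Villus tip genes had a median of 0.10 and turned to -0.07 with the villus-minus-crypt score in the model.

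Metal handling held some of the higher-ranked genes, in both directions. Of 16 tested genes for iron, copper and zinc, 12 were positive and 4 negative, with 5 higher and 2 lower at an unadjusted p under 0.05 (median 0.14, and 0.28 without virgin replicate 3). Slc31a1, the high-affinity copper importer CTR1 (chromosome 4, 62360727 to 62391769, plus strand), stood at 172, 243 and 327 CPM in virgin and 293, 361 and 852 CPM in the 2 states. Each of the 12 libraries of the 2 states lay above the virgin median and 8 above the virgin range. The value was 0.76 (SE 0.20), at 1.01 (SE 0.23) in pregnant and 0.50 (SE 0.23) in pseudopregnant libraries, and 0.70 with the length slope. Atp7a, the pump that exports copper, was at 1.26 (SE 0.57) but at 0.13 with the length slope in the model. Slc40a1, the iron exporter ferroportin, stood at 13.1, 18.7 and 35.4 CPM in virgin and 18.1, 36.5 and 74.7 CPM in the 2 states (0.83, SE 0.32).

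The metallothioneins Mt1 and Mt2, small proteins that bind zinc and copper and are induced by metals and glucocorticoids, were the 2 lower members. Mt1 held 80.75, 211 and 265 CPM in virgin and 41.3, 91.0 and 285 CPM in the 2 states (log2 fold change -0.91, SE 0.34), and Mt2 held 16.6, 118 and 141 CPM against 7.80, 34.4 and 112 CPM (-1.17, SE 0.48). Virgin replicate 1 was the lowest virgin library for both. The ranges overlapped, and the effects were -0.69 and -1.14 for Mt1, and -1.03 and -1.31 for Mt2, in pregnant and pseudopregnant libraries.

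Genes of fat metabolism had values in both directions. Acot1, a thioesterase that frees fatty acids from coenzyme A, stood at 3.39, 5.17 and 11.6 CPM against 1.51, 2.71 and 5.45 CPM (-0.99, SE 0.26), with 10 of 12 libraries below the virgin range. Its paralog Acot2, with which it may share reads, was at -0.42 (SE 0.17). Pdk4, the kinase that turns off pyruvate oxidation in fasting, was at -0.86 (SE 0.41) and at -0.45 without virgin replicate 4. Acacb, the acetyl-CoA carboxylase that restrains fatty acid entry into mitochondria, was at -1.01 (SE 0.32) and the monoglyceride lipase Mgll at -0.57 (SE 0.19), or -0.34 without virgin replicate 4.

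As a whole, the list of fatty acid oxidation and PPAR alpha targets had 15 of 21 members negative with a median of -0.06. Ppara itself, the receptor, was at 0.47 (SE 0.22), made of 0.16 for pregnancy and 0.79 for pseudopregnancy. Dietary fat uptake genes had a median of 0.03, which was -0.0004 with upper quartile scaling, and those of bile acid transport 0.006, which was -0.03 with that scaling. Npc1l1, the cholesterol importer, stood at 471, 676 and 1291 CPM in virgin and 667, 987 and 1393 CPM in the 2 states (0.46, SE 0.20, and 0.70 without virgin replicate 3). Apob, the structural protein of chylomicrons, was at 0.69 (SE 0.34), or 0.25 with the length slope and 1.02 without virgin replicate 3. Abcc2, an apical exporter of conjugates, was at 0.61 (SE 0.28), or 0.22 with the length slope.

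Immediate early genes, which cells switch on within minutes of a stimulus, were lower in the 2 states in 18 of 19 tested members, with a median of -0.24 (-0.16 without virgin replicate 2) and 5 at an unadjusted p under 0.05. Klf2, a transcription factor of this group (chromosome 8, 72319033 to 72321656, plus strand), stood at 13.5, 20.1 and 40.4 CPM in virgin and 10.5, 12.7 and 16.7 CPM in the 2 states. All 12 libraries of the 2 states lay below the virgin median and 7 below the virgin range, and virgin replicate 2 was the highest. Klf2 was at -0.76 (SE 0.18), with -0.79 and -0.72 in pregnant and pseudopregnant libraries, and at -0.51 without virgin replicate 2. Fosl1, a subunit of the AP-1 factor, stood at 0.701, 1.04 and 1.42 CPM against 0.261, 0.494 and 1.05 CPM (-0.84, SE 0.28), and the orphan receptor Nr4a1 was at -0.58 (SE 0.20). The 2 states had medians of -0.20 and -0.19 over the list.

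Heat shock chaperones were negative in 15 of 17, with a median of -0.18 and 5 at an unadjusted p under 0.05. The median was -0.10 with the length slope, -0.28 without virgin replicate 3 and -0.29 without virgin replicate 5. Dnajb1 and Dnaja1, partners of the HSP70 chaperones, were at -0.32 (SE 0.13) and -0.28 (SE 0.11), and Chordc1, a partner of HSP90, at -0.28 (SE 0.12). Dnajb1 was at -0.16 without virgin replicate 4. The list score was 0.24 to 0.41 in 4 virgin libraries but -0.15 and -0.40 in virgin replicates 5 and 3, and -0.29 to 0.15 in the 2 states, so the groups overlapped.

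Enzymes of foreign-compound metabolism were counted in a pair of lists, whose difference was not tested. Cytochrome P450 genes of families 1 to 4 were positive in 14 of 19 with a median of 0.11, and 3 (15.8%, beside 7.6% of all genes) had an unadjusted p under 0.05. The median was 0.02 without virgin replicate 2 and 0.02 with the villus-minus-crypt score in the model, and 0.18 without virgin replicate 3. Cyp1a1, a target of the aryl hydrocarbon receptor, stood at 0.355, 0.508 and 0.797 CPM in virgin and 0.395, 1.09 and 2.29 CPM in the 2 states, with 8 of 12 libraries above the virgin range (1.21, SE 0.33). Cyp3a44, a steroid and drug hydroxylase whose reads may be shared with near-identical Cyp3a genes, stood at 0.377, 1.63 and 2.63 CPM against 2.01, 3.01 and 12 CPM (1.49, SE 0.41), at 1.98 in pregnant and 1.0 in pseudopregnant libraries. Cyp2u1, a fatty acid hydroxylase, was at 0.42 (SE 0.15) and had 9 of 12 libraries above the virgin range. Conjugating enzymes were negative in 18 of 21 with a median of -0.20 (-0.13 without virgin replicate 1), and 4 had an unadjusted p under 0.05. Gsta4, a glutathione transferase for products of lipid peroxidation, stood at 27.3, 40.2 and 56.9 CPM in virgin and 12, 24.5 and 43.9 CPM in the 2 states (-0.66, SE 0.21), with 8 of 12 libraries below the virgin range. Gsta1 was at -0.62 (SE 0.29), or -0.34 without virgin replicate 1, and the phenol sulfotransferase Sult1a1 at -0.92 (SE 0.33).

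Receptors for steroids, prolactin and growth factors were positive in 11 of 14, with a median of 0.22 (0.24 in pregnant, 0.22 in pseudopregnant, and 0.12 for the mean with the length slope) and 4 at an unadjusted p under 0.05. Prlr, the prolactin receptor through which prolactin and placental lactogen act (chromosome 15, 10177238 to 10349180, plus strand), stood at 113, 133 and 169 CPM in virgin and 125, 172 and 189 CPM in the 2 states. Of the 12 libraries 11 exceeded the virgin median, 7 of them the virgin range. The effect was 0.29 (SE 0.11), at 0.27 in pregnant and 0.31 in pseudopregnant libraries, and it was 0.24 to 0.37 when 1 library was left out. Nr3c2, the mineralocorticoid receptor, was at 0.38 (SE 0.16), or 0.15 with the length slope, and Nr3c1, the glucocorticoid receptor, at 0.31 (SE 0.13), or 0.12 with the length slope. Esr1, estrogen receptor alpha, was low throughout: 0.174 to 0.514 CPM in virgin, 0.413 to 1.18 in pregnant and 0.058 to 0.675 in pseudopregnant libraries, giving 1.0 (SE 0.41) and -0.07 (SE 0.45). Pgr, the progesterone receptor, was lower still, with a median of 0.211 CPM in virgin and 0.215 in the 2 states, and its fold change of -0.01 (SE 0.46) ran from -0.25 to 0.42 as 1 library was left out.

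**Figure D3:**
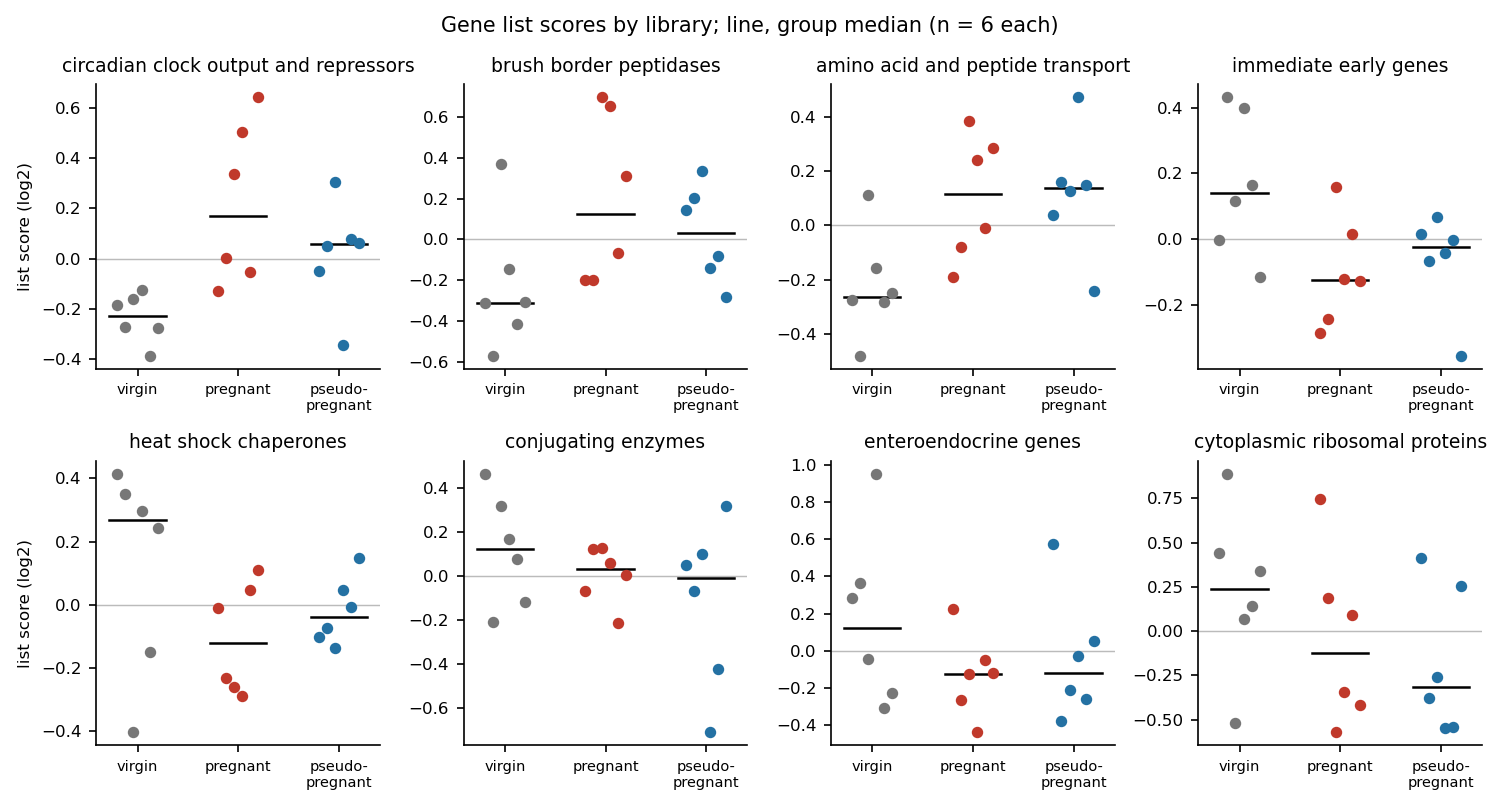
Scores of 8 gene lists in each library (y axis, mean log2 deviation of the list's members from their mean over 18 libraries), with the group median as a line (n = 6 each). Clock output, peptidases and transporters lie higher in the 2 states and the other 5 lists lower, and every list overlaps between the groups.

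Genes of secretory cells were mostly negative in sign, with few at an unadjusted p under 0.05. Of 27 tested enteroendocrine genes 25 were negative, with a median of -0.29 (-0.38 in pregnant, -0.20 in pseudopregnant). An unadjusted p under 0.05 was held by 3 of them (11.1%, beside 7.6% of all genes). Reg4, a lectin of enteroendocrine and goblet cells, stood at 54.1, 231 and 371 CPM in virgin and 63.6, 120 and 246 CPM in the 2 states (-0.78, SE 0.31, and -0.40 with the length slope). The secretogranin gene Scg2 was at -0.46 (SE 0.18), or -0.22 without virgin replicate 4, and Gcg, which encodes the precursor of GLP-1, at -0.44 (SE 0.20). The median of the list was -0.18 with the length slope and -0.09 without virgin replicate 4, whose score of 0.95 was the highest of all. Goblet cell genes were negative in 14 of 18 (median -0.22, which was -0.35 when virgin replicate 3 was left out and -0.09 when virgin replicate 4 was), and 1 of the 18 (5.56%, beside 7.6% of all genes) had an unadjusted p under 0.05. The list held the kallikrein Klk1 at -0.51 (SE 0.22) and the mucin-folding enzyme Agr2 at -0.40 (SE 0.20), or -0.13 with the length slope. Paneth cell genes were negative in 15 of 16 with a median of -0.27, but at 0.16 with the length slope and 0.14 with the villus-minus-crypt score in the model, and none had an unadjusted p under 0.05.

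Stem cell and cell cycle genes gave no shared direction that held. Stem cell and Wnt target genes had a median of 0.09 (-0.08 in pregnant and 0.28 in pseudopregnant libraries), which was -0.05 without virgin replicate 3. Lgr5 and Olfm4, which mark crypt base stem cells, were at 0.27 (SE 0.31) and 0.32 (SE 0.39), and Olfm4 was at -0.08 with the length slope, while the stem cell factor Ascl2 stood lower (1.73, 5.95 and 10.5 CPM in virgin, 1.75, 3.61 and 5.42 CPM in the 2 states, -0.63, SE 0.28). Cell cycle genes had a median of -0.09 (-0.19 in pregnant and 0.02 in pseudopregnant libraries) with 24 of 34 negative and none at an unadjusted p under 0.05. Mki67, the proliferation marker, stood at 37.4, 58.2 and 73.1 CPM in virgin, 32.9, 53.9 and 93.9 CPM in pregnant and 35.1, 96.9 and 152 CPM in pseudopregnant libraries. Its effects were -0.02 and 0.65 (SE 0.31 each), with a mean of 0.32 (SE 0.27). Myc, the growth regulator, was at -0.45 (SE 0.22), with -0.45 in each state. Ribosome biogenesis genes and MYC targets were negative in 23 of 30, with none at an unadjusted p under 0.05. Their median was -0.16 (-0.23 in pregnant and -0.08 in pseudopregnant libraries) and kept its sign in every alternative. It was -0.24 without virgin replicate 3, -0.10 with the length slope and -0.02 with the villus-minus-crypt score.

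Cytoplasmic ribosomal protein genes were negative in 50 of 50 tested members with a median of -0.35, and nuclear genes of oxidative phosphorylation in 36 of 40 with a median of -0.19, yet none of them had an unadjusted p under 0.05. With the length slope in the model the medians were -0.02 and 0.04. Without virgin replicate 2, the library with the highest ribosomal score (0.89), the ribosomal median was -0.18. Genes of such a list vary together from library to library, so their signs are not separate observations.

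**Figure D4:**
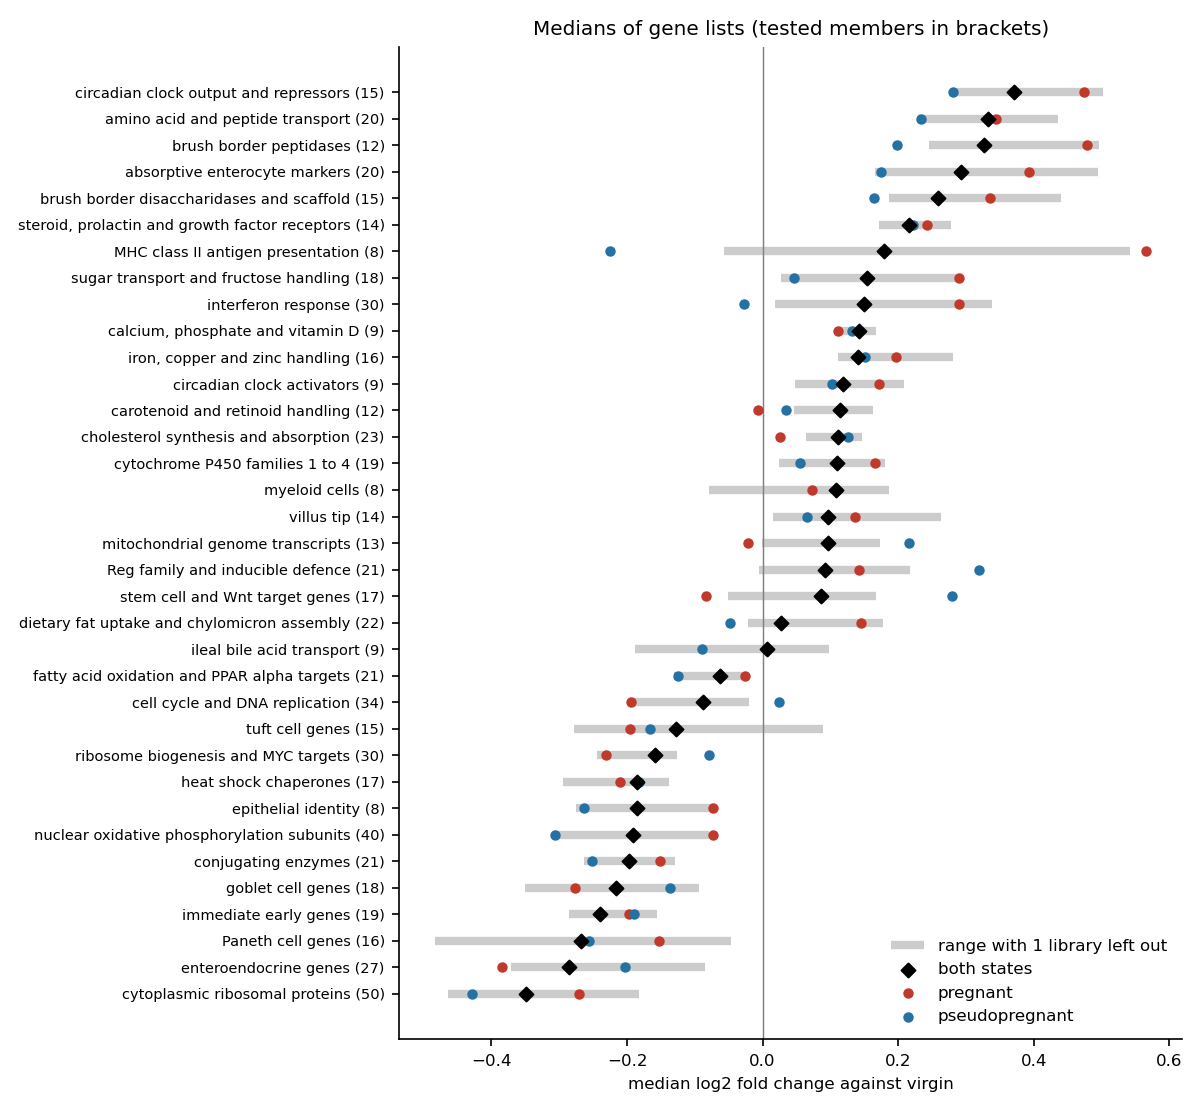
Median log2 fold change against virgin (x axis) of the 35 gene lists with at least 5 tested members: both states (black), pregnant (red) and pseudopregnant (blue), with the range over sets that leave out 1 library (grey bar). Clock output lies highest at 0.37 and ribosomal proteins lowest at -0.35, and several bars cross 0.

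How far the 2 states shared these effects was read from the direct contrast of pregnant with pseudopregnant libraries, in which the virgin group cancels. No gene passed adjustment with edgeR (0 of 14675, 0%), and 345 (2.35%) had an unadjusted p under 0.05, of which 112 were higher in pregnant libraries (0.763%). That count was 1568 without pseudopregnant replicate 1 and 1004 without pregnant replicate 6, and 120 without pseudopregnant replicate 4. A difference that misses the threshold does not show that the states act alike. For Bco1 the difference was 0.42 (SE 0.34), for Gm42427 0.20 (SE 0.26), for Per3 0.24 (SE 0.31), for Cubn 0.12 (SE 0.37) and for Klf2 -0.07 (SE 0.21).

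In some genes the 2 effects lay far apart, though no such difference passed adjustment. The list of Reg family and inducible defence genes, which holds B3galt5 and Mbl2, had a median difference of -0.14 between pregnant and pseudopregnant libraries. B3galt5, a galactosyltransferase of glycan chains, had a mean effect of 2.61 (SE 1.01), made of 0.76 in pregnant and 4.46 in pseudopregnant libraries. Its 6 pseudopregnant values ran from 0.436 to 77.2 CPM, with the highest in replicate 4 and the next in replicate 5 (12.7), and without replicate 4 the mean effect was 1.52. Slc6a14, a broad amino acid transporter, showed the same library highest (5.56 CPM against at most 0.277 in virgin), and Alpk1, a kinase that senses bacterial sugars, reached 38.2 CPM there against 3.51 to 5.75 in virgin. Mbl2, a mannose-binding lectin, was on the other side, with 1.51 (SE 0.34) in pregnant and 0.43 (SE 0.34) in pseudopregnant libraries. All 8 tested genes of MHC class II were positive in the mean (median 0.18), which gave -0.06 without virgin replicate 6. The medians were 0.57 in pregnant and -0.23 in pseudopregnant libraries. The lowest list scores were those of pseudopregnant replicate 5 (-3.05) and virgin replicate 6 (-2.68). By median score, pseudopregnancy (0.08) lay above the virgin group (-0.12), with pregnancy at 0.72.

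Genes with opposite effects in the 2 states were taken by the smallest p of the direct contrast, so their difference is a description. Cxcl10, a chemokine induced by interferon, was at 0.89 in pregnant and -1.34 in pseudopregnant libraries, with 29.8 CPM in pregnant replicate 3 and at most 3.21 in the other pregnant libraries. Cish, an inhibitor induced by cytokine and prolactin signals through STAT5, stood at 14.5, 22.3 and 35.5 CPM in pregnant and 11.6, 15.9 and 19.2 CPM in pseudopregnant libraries (0.50 and -0.07). Tgfbr2, a receptor for TGF beta, was at -0.16 and 0.36, Parm1 at -0.31 and 0.31, and Fbxl6 at 0.30 and -0.11. Their mean effects lay between -0.23 and 0.22.

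Further genes among those of smallest p had the same sign in the 2 states, and their 2 effects are drawn in the plot of gene effects. Foxo3, a transcription factor of the insulin and stress pathways, stood at 27.8, 33.9 and 61.9 CPM in virgin and 38.3, 51.5 and 63.7 CPM in the 2 states (0.47, SE 0.14). Cachd1 was at 0.57 (SE 0.15) with 10 of 12 libraries above the virgin range, Vwa5a at 0.43 (SE 0.13), the phosphatase gene Ptprj at 0.39 (SE 0.12) and Nhs at 0.75 (SE 0.21). Akap13, an anchoring protein for protein kinase A, was at 0.73 (SE 0.19), Zfp385b at 0.78 (SE 0.20) and Serpina1f at 0.62 (SE 0.17). Among lower genes, Bin1, which shapes membranes, stood at 3.04, 5.81 and 7.70 CPM in virgin and 2.28, 3.15 and 4.21 CPM in the 2 states (-0.79, SE 0.18). All 12 libraries lay below the virgin median of Bin1, and 4 below its range. Id4, an inhibitor of basic helix-loop-helix factors, stood at 1.01, 3.67 and 4.8 CPM against 1.01, 1.76 and 2.40 CPM (-1.0, SE 0.24). Virgin replicate 3 was as low as the 2 states, and without the 3 libraries of highest villus-minus-crypt score, a set chosen after the data were seen, Id4 was at -1.29 and was the 1 gene called by edgeR (adjusted p = 0.0470, with 0.0470 to 1.0 over all alternatives). Tcf23, another factor of that class, was at -0.73 (SE 0.19) with 11 of 12 libraries below the virgin range, and Rnaseh1, Jmjd6 and Fancf were at -0.37, -0.35 and -0.40.

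**Figure D5:**
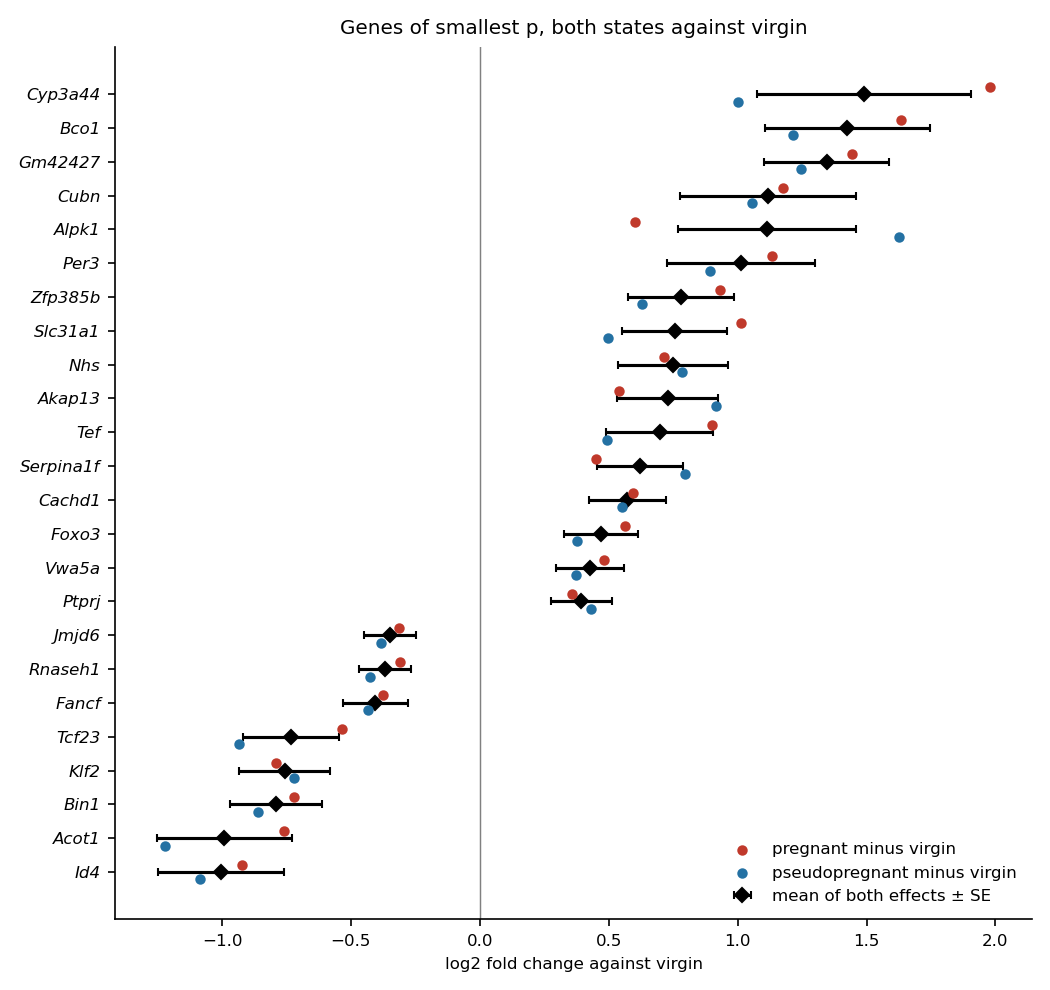
Log2 fold change against virgin (x axis) of 23 genes among those of smallest p with a mean of at least 2 CPM, and of Gm42427. Black diamonds, mean of both effects with its SE; red, pregnant; blue, pseudopregnant; 16 genes lie above 0 and 8 below, with the widest gaps between the states for Alpk1 (0.60 and 1.63) and Cyp3a44 (1.98 and 1.0).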

How the data were processed

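Poly(A) RNA of sorted ileal epithelial cells was sequenced in 18 libraries. The authors deposited read counts per Ensembl gene, 1 table a library and not normalized. Tools named in the submitters' processing notes are HISAT2 2.0.4, Subread 2.0.0 with featureCounts, DESeq2 1.24.0 and FastQC 0.11.5, and the build is GRCm38. The strand setting is not given in the sources used here. Overlapping, antisense and near-identical genes may thus share reads. Of 47729 genes, 47310 matched GENCODE M21 by identifier, and the 419 others held at most 0.029% of counts. Groups came from the titles. EdgeR 4.0.16 (R 4.3.3) filtered genes with filterByExpr, scaled by TMM and fitted 1 mean per group to all libraries (glmQLFit, legacy = FALSE). Two-sided contrasts were adjusted by Benjamini-Hochberg over all genes at 0.05. DESeq2 1.42.0 and limma 3.58.1 were alternatives. On simulated counts with 14541 genes, 89 of 100 genes changed by a log2 of 1 and 100 of 100 changed by 2 were recovered, with 8 false calls. Each gene was drawn independently from 1 common profile, and only genes with a mean of at least 2 CPM were changed. Recovery of genes at lower levels was not tested. Recovery when genes vary together from library to library was not tested. In the measured counts, Bco1 (log2 fold change 1.42) did not pass adjustment with edgeR.

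The 24 genes of smallest p with a mean of at least 2 CPM were named, with 8 high and 8 low genes by the smaller of the 2 effects, 6 genes of opposite effects, 3 members of smallest p of each list, and genes fixed by name. A selection of these is printed, and 1 is not reported here. List scores used log2 CPM with a prior count of 2. Covariates were the villus-minus-crypt score, which contains the enterocyte and cell cycle lists, and the length slope over genes of at least 50 CPM. The enterocyte list holds genes that are also printed under peptidases and sugar transport, such as Dpp4, Ace and Slc5a1. Values with that score in the model are therefore not independent of these genes. Promoters came from RefSeq (GRCm38.p6). Members and lists were chosen with earlier results of these data known. Replicates differed beyond counting noise (lowest chi-square per degree of freedom 35.5), and none was counted as a duplicate.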

Additional observations from a re-analysis of the deposited data

Results flagged for a closer look

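In 300 groups of 6 values (the genes printed and 5 library measures), the highest or lowest value stood apart in 22 by Dixon's ratio at its 95% critical value. For genes the ratio was taken on log2 CPM with a prior count of 2. The values below are printed as CPM, on which the ratio can fall under its critical value. Chance gives about 1 in 20. Among virgin libraries, replicate 3 was high for Xpnpep2 (547 CPM, others 333 to 401) and for the villus-minus-crypt score (1.35, others -0.90 to -0.21). The same library was low for Sult1a1 (0.832 CPM, others 2.17 to 3.61), Id4 (1.01 CPM, others 2.70 to 4.8) and Myc (11.1 CPM, others 24.4 to 33.5). Virgin replicate 1 was low for the metallothioneins Mt1 (80.75 CPM, others 187 to 265) and Mt2 (16.6 CPM, others 102 to 141), and for Tgfbr2 (6.76 CPM, others 8.18 to 8.51). Virgin replicate 6 held 250 CPM of the alpha-defensin pseudogene Defa-ps4, with 0.763 to 3.36 in the other virgin libraries, and virgin replicate 4 had 8.67% of counts from the mitochondrial genome (others 5.24 to 6.32).

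Among pregnant libraries, replicate 1 was low for Gm42427 (24.5 CPM, others 40.3 to 53.8) and high for Gsta4 (33.5 CPM, others 22.6 to 26.2). Pregnant replicate 5 was high for Sult1a1 (2.60 CPM, others 1.07 to 1.38) and for the proglucagon gene Gcg (63.5 CPM, others 27.2 to 34.2), and pregnant replicate 3 for Cxcl10 (29.8 CPM, others 1.52 to 3.21). Pseudopregnant replicate 4 was low for Bco1 (9.64 CPM, others 29.3 to 50.9), Pdk4 (2.20 CPM, others 9.62 to 22.3), Sult1a1 (0.145 CPM, others 0.956 to 2.40) and Cyp2u1 (19.5 CPM, others 34.7 to 40.7). Pseudopregnant replicate 6 was low for Prlr (134 CPM, others 166 to 185). Of the defensin pseudogenes, whose reads may be shared with other Defa genes, Defa-ps4 stood at 130 CPM in pseudopregnant replicate 3 (others 1.30 to 3.33) and Defa-ps16 at 68.4 CPM in pseudopregnant replicate 1 (others 1.05 to 2.47).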

How the results depend on the processing

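Over 32 alternatives, 89 of the 95 genes printed kept their sign. In this count the 6 genes of opposite effects were scored on the difference between the 2 states, not against virgin. Against virgin, Cxcl10 and Isx, which are among these 6, took both signs as 1 library was left out. Values for the other genes follow. Values of opposite sign were Pgr (0.061 with limma-voom, 0.15 with the villus-minus-crypt score, 0.11 without virgin replicate 2 and pregnant and pseudopregnant replicates 1, and -0.25 to 0.42 with 1 library left out), Mki67 (-0.0092), Olfm4 (-0.078), Epcam (0.081) and Ptprc (-0.0017) with the length slope, and, with libraries left out, Epcam (-0.13 to 0.0031), Ptprc (-0.030 to 0.24) and Defa-ps4 (-4.50 to 1.64, the last without virgin replicate 6). The count past adjustment, 0 with edgeR, was 2 with DESeq2, 0 to 1 with 1 library left out (1 without pseudopregnant replicate 1), and 1 in each set, chosen after seeing the data, without the 3 replicates 3 or without virgin replicate 2 and pregnant and pseudopregnant replicates 1. At an unadjusted p under 0.05, 1116 genes became 1722 with no low-count filter (27470 genes tested), 447 with the length slope, 454 to 2871 with 1 library left out, and 2017 and 1860 in those 2 sets. For pregnant against pseudopregnant, 345 became 844 with no filter, 120 to 1568 with 1 library left out and 943 in the second set, and 0 passed adjustment in any. The cause of these shifts was not tested. The replicate number as a block gave 1 gene past adjustment (Gm42427, 0.0156) and 1723 and 618 at an unadjusted p under 0.05. The labels do not say that a number pairs samples. Log2 deviations of libraries from their own group's mean were correlated between groups over all genes tested. Same-numbered libraries gave -0.48 to 0.66 (median 0.13), and differently numbered ones -0.71 to 0.70 (median -0.04). Of the 18 same-numbered pairs, 6 held the highest correlation of their virgin library, or of their pregnant library set against pseudopregnant ones, with the other group. Each highest value was picked among the 6 libraries of that other group. Of 35 list medians, 12 changed sign in some alternative, among them bile acid transport, villus tip, Paneth, tuft, stem cell and MHC class II genes. No scaling moved the median of all genes by more than 0.0324.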

Other observations

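Alpha-defensin pseudogenes varied from library to library more than between the groups. Defa-ps17 stood at 0.832, 4.91 and 127 CPM in virgin libraries and at 0.606, 69.2 and 415 CPM in the 2 states (lowest, median, highest), so both groups spanned values near 1 and above 100. Its log2 fold change was 2.16 (SE 1.36), and that of Defa-ps16 was 2.06 (SE 1.19). Defa-ps4 was at -2.69 (SE 1.13) and at 1.64 without virgin replicate 6. These pseudogenes lie in the defensin cluster of chromosome 8 and have near-identical copies, so counts between them are uncertain.

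Exph5 and Tnks, genes with long transcripts, were at 1.39 (SE 0.57) and 1.34 (SE 0.58), and at 0.23 and 0.17 with the length slope in the model. Exph5 stood at 2.01, 9.26 and 18.3 CPM in virgin and 3.92, 17.9 and 61.6 CPM in the 2 states. The tight junction gene Cldn8 was among the lower genes, at 2.36, 8.13 and 17.3 CPM in virgin and 2.69, 4.96 and 9.80 CPM in the 2 states (-0.82, SE 0.34), with no library outside the virgin range. Krt18, a keratin of simple epithelia, was at -0.41 (SE 0.16), or -0.18 with the length slope.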
